A study of Rattus norvegicus with 60 samples.

Results

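Skeletal muscle genes were examined in the inside of the knee and in the popliteal lymph nodes of rats with haemophilia A. The list named 34 genes of the contractile apparatus, the calcium release system and the energy supply of striated muscle fibres. A gene was taken from the probe sets annotated with its symbol alone, and the probe set with the highest mean was used where there were several. Of the 34 genes, 26 had such a probe set, out of 18166 genes with a probe set of their own and 36685 probe sets in all. The other 8 had none under this rule and are given no values here, namely Myh1, Myh2, Myh4, Mylpf, Myl2, Atp2a1, Tcap and Cacna1s. The fast myosin heavy chain Myh1 was listed for 4 probe sets that each carry several symbols.

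The study induced a joint bleed in the left knee of 11 haemophilia A rats and performed a sham procedure on 9 further haemophilia A rats, and took tissue 24 h later. RNA of the intra-articular tissue came from 11 bled left knees, the 11 contralateral right knees of the same rats and 7 sham right knees. RNA of the popliteal nodes came from 11 bled, 11 contralateral and 9 sham sides. Every rat of the 20 carried the clotting defect, so no group had normal haemostasis. The bled knee was always the left and the sham knee always the right, so that side, injury of the joint and blood cannot be told apart in the comparison of these groups. The knee tissue is labelled synovial, and the mean of 6 synovial lining markers lay between 9.64 and 11.56 log2 units in the 29 knees, against 7.28 to 8.15 in the 31 nodes. The mean of 6 lymph node markers lay between 6.05 and 7.15 in knees and between 10.78 and 11.25 in nodes. Sham knee C5 deviated from the mean of its group by 0.516 log2 units (root mean square over all probe sets), against at most 0.349 in the other sham knees, and sham nodes C9 and C2 by 0.542 and 0.379, against at most 0.255. The members called per knee comparison were as many without knee C5 as with it, 4 for bled against contralateral and 2 for bled against sham. The share of all probe sets called without C5 is not given here.

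In a striated fibre, myosin in the thick filament pulls on actin in the thin filament, and calcium released from the sarcoplasmic reticulum through Ryr1 starts the pull by binding troponin. Titin, nebulin and the proteins of the Z disc hold the filaments in register, and creatine kinase, myoglobin and the glycolytic enzymes supply the fuel. Synovium and lymph node are not built of striated fibres, whereas thigh and calf muscles and their tendons insert around the knee capsule. In tissue RNA of this kind, fewer muscle fibres in a sample and less of a transcript per fibre cannot be told apart.

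The 3 sequences that follow are shown because they are the upstream regions of the most studied actin and kinase genes of the fibre and of Ldb3, the member with the lowest adjusted p in the knee comparisons. They are the 250 bases before the annotated RefSeq start on rat assembly GRCr8, at chr19:68784195-68784444 on the minus strand for Acta1, chr1:88189211-88189460 on the plus strand for Ckm and chr16:9924680-9924929 on the minus strand for Ldb3. Capitals mark matches on either strand to CAGCTG (an E box bound by the MyoD family), CATTCC (the MCAT element), TATAAA, the CArG box and the MEF2 box, the last having none in these 3.
Acta1: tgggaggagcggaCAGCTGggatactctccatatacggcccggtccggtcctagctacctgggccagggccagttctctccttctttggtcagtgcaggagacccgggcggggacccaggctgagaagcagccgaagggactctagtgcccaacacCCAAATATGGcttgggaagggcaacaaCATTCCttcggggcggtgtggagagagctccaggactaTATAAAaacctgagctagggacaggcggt
Ckm: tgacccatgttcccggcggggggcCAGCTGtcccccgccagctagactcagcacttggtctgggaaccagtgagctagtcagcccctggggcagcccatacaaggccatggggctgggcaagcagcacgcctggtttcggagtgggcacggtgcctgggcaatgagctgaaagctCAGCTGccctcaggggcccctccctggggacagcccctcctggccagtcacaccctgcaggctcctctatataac
Ldb3: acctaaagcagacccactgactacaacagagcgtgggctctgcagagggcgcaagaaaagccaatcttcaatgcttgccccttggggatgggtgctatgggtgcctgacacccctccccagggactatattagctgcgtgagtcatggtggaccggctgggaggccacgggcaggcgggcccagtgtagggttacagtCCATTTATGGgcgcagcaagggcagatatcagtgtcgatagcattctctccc
RefSeq windows of 300 bases, from 250 before to 50 after the start, were found for 29 of the 34 genes and were compared with all 33469 windows of the table. A CArG box, the site of serum response factor, lay in the windows of Acta1, Ldb3, Myh4 and Myl3, or 13.8% of the 29 genes, against 1.64% of all windows. A MEF2 box lay in those of Myh1, Myh4, Myl1, Myoz1 and Ttn, or 17.2% against 1.87%. CAGCTG was found for 37.9% of the genes against 15.1% of all windows, CATTCC for 31% against 14.2% and TATAAA for 37.9% against 14.2%. Ckm held 2 CAGCTG boxes and Acta1 held 1 beside its CArG box, CATTCC and TATAAA, whereas the Ldb3 window held the CArG box alone.

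Skeletal muscle RNA was present in some knees at high level and in others at about the level of a lymph node. All values are log2 intensities, and they are compared between arrays for 1 gene at a time, never between genes. The mean of the 26 genes ranged from 5.54 to 11.13 in bled knees with a median of 6.52. It ranged from 5.81 to 11.39 in contralateral knees with a median of 9.51, and from 5.72 to 11.32 in sham knees with a median of 9.29. In nodes the same mean stayed between 5.67 and 6.09 over all 31 arrays. The 3 knee groups thus overlapped over nearly their whole range, and each held arrays within or below the node range and arrays above 11. The mean includes Mybpc1, Eno3 and Ryr1, for which some knees lay below every node, so its node range is not a floor for knees.

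**Figure D1:**
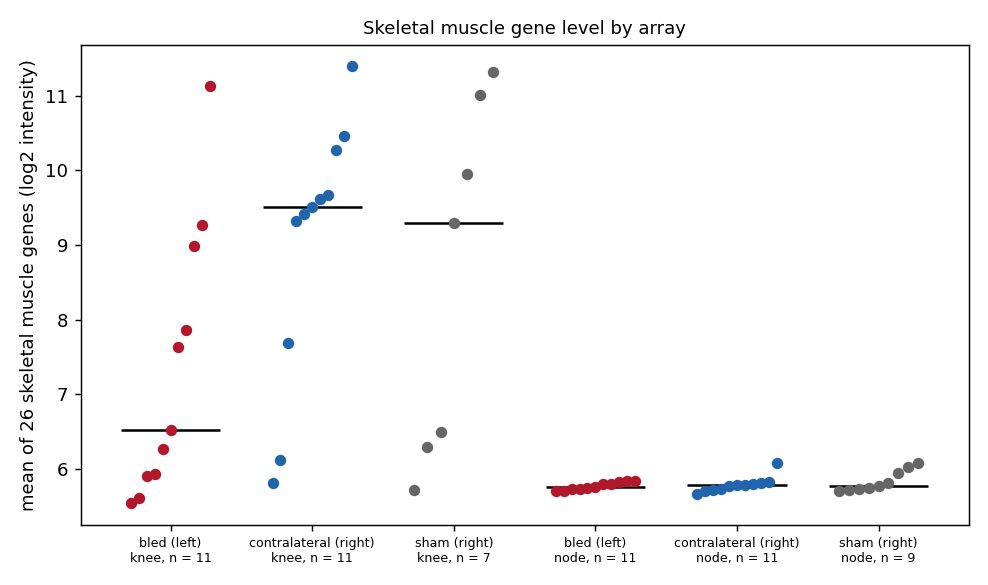
Mean log2 intensity of the 26 skeletal muscle genes in each array, by tissue and group, with the median of a group as a bar and the arrays of a group spread sideways in order of value. Knee arrays ran from 5.54 to 11.39 in overlapping groups, and node arrays stayed between 5.67 and 6.09.

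Which knees were rich in muscle transcripts did not follow the groups alone. Of the 11 knees with the lowest means, at 6.52 or below, 6 were bled, 2 contralateral and 3 sham. The next knee in order, bled K1, stood at 7.64. At the other end, contralateral K7, sham C6 and bled K3 had the highest means, and these 3 arrays were among the 6 highest for all 26 genes. Within a rat, the bled knee had the lower mean in 8 of 11 animals, by up to 5.13 log2 units in K7, and the higher mean in K2 by 3.15, in K3 by 0.85 and in K9 by 0.71.

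**Figure D2:**
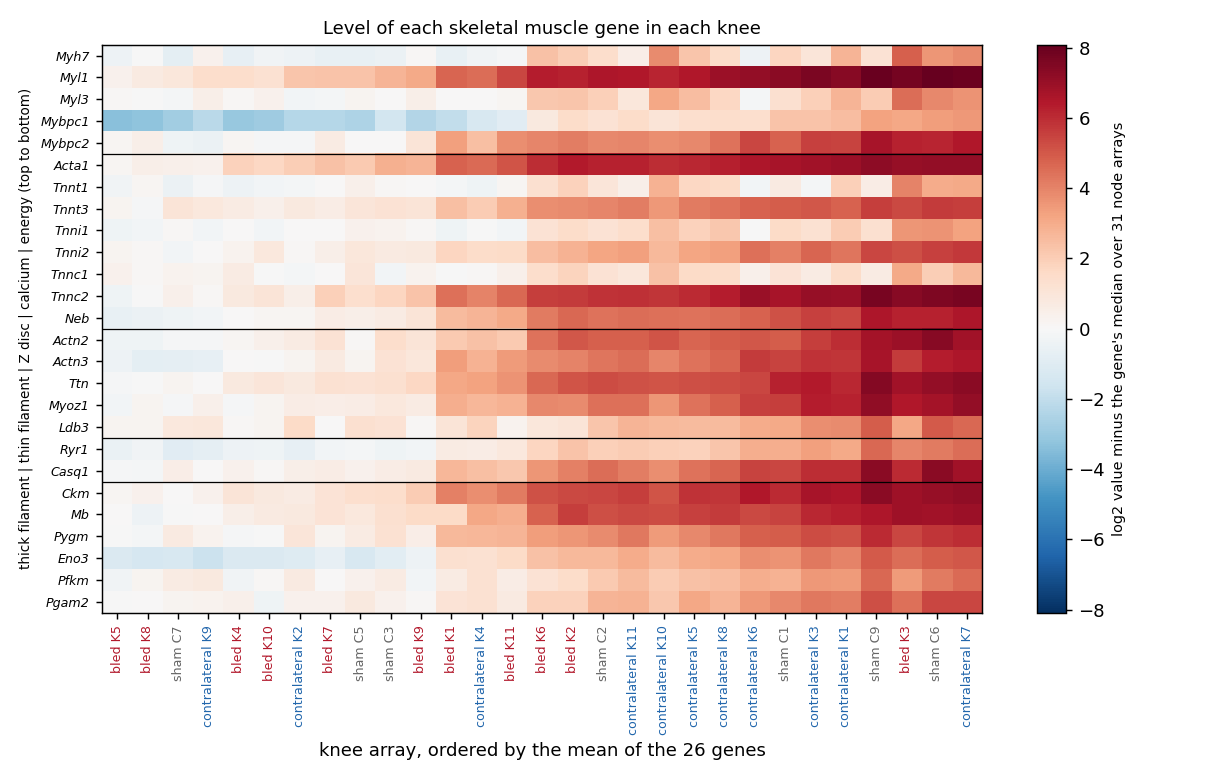
Log2 value of each of the 26 genes in each of the 29 knees, relative to the median of that gene over the 31 nodes. Columns are ordered by the mean of the genes and labelled by group and rat, and rows by role. Most genes brightened together from left to right, and bled, contralateral and sham knees were interleaved.

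Acta1, the skeletal actin of the thin filament, showed the pattern of most members. It ranged from 6.05 to 12.94 with a median of 8.64 in bled knees, from 6.21 to 13.01 with a median of 12.09 in contralateral knees and from 6.27 to 13.10 with a median of 12.08 in sham knees. The lowest knees of every group thus lay within the node range of 5.45 to 6.85, and the highest knees of the 3 groups lay between 12.94 and 13.10. Ckm, the creatine kinase of the fibre, ranged from 6.48 to 13.18 with a median of 8.37 in bled knees, from 6.63 to 13.49 with a median of 12.08 in contralateral knees and from 6.34 to 13.58 with a median of 11.69 in sham knees. Its node range was 5.82 to 7.12, and 3 bled, 2 contralateral and 1 sham knee did not exceed it.

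Thick filament genes came next. Myl1, an essential light chain of fast fibres, reached 13.25 in a sham knee, and 4 of the 29 knees were at or below its highest node. Mybpc2, the fast myosin-binding protein C, reached 12.24, with 9 knees at or below the highest node. Myh7, the heavy chain of slow fibres, reached 9.50 in bled K3, and 16 knees did not exceed its highest node. Mybpc1, the slow form of myosin-binding protein C, had nodes at 8.10 to 9.07 while knees went down to 5.20. Its node values are therefore not a floor for knee tissue, and the same held for the muscle enolase Eno3, with nodes from 7.47 and knees from 6.27, and for Ryr1, with nodes from 5.77 and knees from 5.07. Actn3, Myh7, Tnnt1, Tnni1, Neb and Pgam2 also had at least 1 knee below their lowest node.

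Among thin filament genes, the calcium sensor Tnnc2 of fast fibres spanned 5.00 to 13.05 over the knees, with 7 knees at or below its highest node. Its slow counterpart Tnnc1 spanned 4.73 to 7.99, with 12 knees at or below its highest node. The slow troponins Tnni1 and Tnnt1 stood at or below their highest node in 19 and 17 knees, and the fast troponins Tnni2 and Tnnt3 in 10 and 5. Neb, the nebulin that lies along the thin filament, spanned 4.82 to 12.01.

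Scaffold, calcium and energy genes also ranged widely over the knees. Ttn, the giant spring that links Z disc and thick filament, spanned 4.56 to 12.06, and Myoz1, a calcineurin-binding Z disc protein of fast fibres, 4.90 to 12.26. The actin cross-linkers Actn2 and Actn3 of the Z disc, the latter of fast fibres, spanned 3.88 to 11.56 and 5.40 to 12.88. Ryr1, the calcium release channel, spanned 5.07 to 10.62, and Casq1, the calcium-storing calsequestrin, 4.40 to 11.85. Among the energy genes, the oxygen store Mb spanned 5.49 to 12.79, the glycogen phosphorylase Pygm 6.84 to 13.00 and the muscle phosphoglycerate mutase Pgam2 6.15 to 11.87.

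Few genes on the array varied as much between knees of 1 group. The standard deviation pooled within the 3 knee groups was between 0.90 and 2.75 log2 units for the 26 genes, with a median of 2.26, against a median of 0.234 over all probe sets. Each of the 26 exceeded at least 99.2% of the probe sets, and 17 were among the 50 most variable, 22 among the 100 and 25 among the 200. In nodes the median was 0.226, against 0.201 over all probe sets.

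The genes also varied together. Each gene was correlated with the mean of the other 25 over deviations from the group means of the 29 knees, which share library, RNA and scan for every gene. Pearson r had a median of 0.980 over the members and exceeded 0.9 for 21 of them, with a highest value of 0.994 for Neb. Spearman's rho had a median of 0.976, and Pearson r a median of 0.980 without the 2 arrays farthest from the median of the mean. The other genes of the array had a median r of -0.0677 with the mean of the members, and 62 of them, or 0.342%, exceeded 0.9. Within single groups the median r was 0.973 in bled, 0.978 in contralateral and 0.992 in sham knees. In nodes, where the members varied far less than in knees, the median r was 0.328. It ranged from -0.109 to 0.746 over the members there, against a median of 0.0197 for the other genes.

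The 5 measured troponin and myosin chain genes of slow fibres were the loosest members. Tnnt1 had an r of 0.731, Tnnc1 of 0.754, Myh7 of 0.794, Tnni1 of 0.818 and Myl3, a light chain of slow fibres and ventricle, of 0.828. Mybpc1, also named as a slow form, was not among them, with an r of 0.987. The mean of the 5 genes went from 4.72 to 8.95 over the knees, and that of the fast-fibre members from 5.56 to 12.38. Contralateral K6 had a fast mean of 11.23 with a slow mean of 4.87, inside the node range of 4.75 to 5.30. Contralateral K10 had a lower fast mean of 9.70 with a slow mean of 7.85. Sham C9 had the highest fast mean, 12.38, with a slow mean of 6.10, whereas bled K3 had 11.82 with the highest slow mean. Contralateral K6 and K1, with like fast means of 11.23 and 11.43, thus differed in slow mean (4.87 and 7.14), whereas bled K2 and K6, with fast means of 9.88 and 9.73, had slow means of 6.82 and 6.64.

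**Figure D3:**
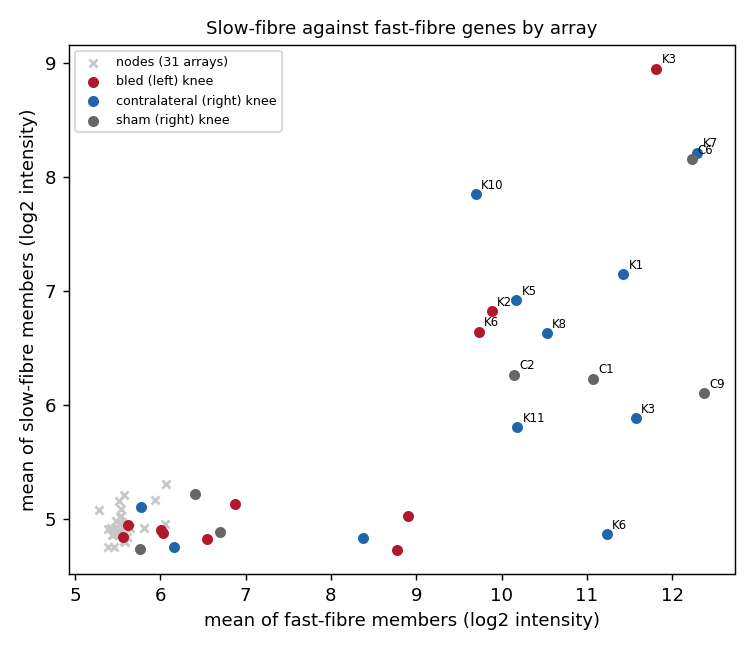
Mean log2 intensity of the 5 measured troponin and myosin chain genes of slow fibres (without Mybpc1) against that of the 8 measured fast-fibre genes, 1 point per array, with knees labelled by rat where the fast mean exceeded 9. Contralateral K6 lay at the node level of the slow genes despite a fast mean of 11.23, and bled K3 had the highest slow mean, 8.95.

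The 10 genes outside the list that were most like the members were ranked by Pearson r with their mean over the same deviations, as a description. In order they were the triadic junction gene Trdn (0.995), the titin-binding Ankrd23 (0.991), Myl11 (0.988), Nrap (0.986), the AMP deaminase of muscle Ampd1 (0.986), the Z disc gene Myot (0.984), the muscle cytochrome oxidase subunit Cox6a2 (0.984), the calcium buffer Pvalb (0.983), the elongation factor Eef1a2 (0.983) and Trim54 (0.982). Myl11 carries Mylpf as a RefSeq synonym, so the fast regulatory light chain was measured under its newer symbol. It ranged from 4.94 to 11.75 in bled, 5.38 to 12.19 in contralateral and 5.23 to 12.40 in sham knees, with no node above 6.40.

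Sham knees were compared with sham nodes first, in a limma fit of all 60 arrays, to see which members knee tissue carried above the node. Of the 26 members, 23 were higher in knees and none lower at an adjusted p under 0.05, where 52.5% of all probe sets were called in either direction and 24.3% higher. The median difference was 2.98 log2 units, and Myl1 had the highest at 4.98 ± 0.88 (SE, limma adjusted p = 1.97e-06, 7 knees and 9 nodes). Myh7, Tnnt1 and Mybpc1 did not pass, at 0.84 ± 0.57, 0.63 ± 0.43 and 0.24 ± 0.76. The fit shares 1 estimate of the spread over knees and nodes, and the members varied far more in knees. Myl1 had a standard deviation of 3.02 in sham knees and 0.35 in sham nodes. The SE and adjusted p of this contrast can thus be too small for the members, and the count of 23 too high. Without sham knee C6, which had the highest mean of the sham knees, 18 members passed. The share of all probe sets called without C6 is not given here.

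Bled knees were then compared with contralateral knees of the same rats. All 26 members had a lower mean in bled knees, by 0.33 to 2.28 log2 units with a median of 1.92. Of the 26, 4 were called lower and none higher at an adjusted p under 0.05, where 34.7% of all probe sets were called and 15.2% were called lower, so the members' share was near the background. The median standard error was 0.90 for the members and 0.0987 over all probe sets, and 13 members had an unadjusted p under 0.05. With the rat as a fixed term, 8 members were called lower, the added ones being Tnnt3, Casq1, Myoz1 and Mybpc1. The count depended on single knees: it was 17 without contralateral K9, 14 without bled K3 and 10 without contralateral K2, and 2 in 13 of the 29 fits that each left out 1 knee. The members varied together and can cross the threshold together, so these are not counts of separate results. The share of all probe sets called in these alternative fits is not given here.

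Ldb3, a PDZ and LIM protein of the Z disc also known as ZASP or Cypher, was the clearest of the 4. In bled knees it was lowest at 5.69, had a median of 5.93 and a highest value of 8.85. In contralateral knees it was lowest at 6.60, with a median of 8.30 and a highest value of 10.31, and in sham knees at 6.57, 7.96 and 10.65. All 11 rats had the lower value on the bled side, and 7 bled knees but no contralateral or sham knee lay at or below the highest node. Ldb3 fell by 2.06 ± 0.48 log2 units against contralateral knees (SE, limma adjusted p = 0.000846, n = 11 and 11), a 4.18-fold difference, and fell by 1.98 ± 0.55 against sham knees (limma adjusted p = 0.00428, n = 11 and 7). It was called in every alternative fit of both comparisons.

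Pfkm, the muscle phosphofructokinase that commits glucose to glycolysis, was the next. Its bled knees ranged from 6.88 to 10.64 with a median of 7.40, its contralateral knees from 7.91 to 11.80 with a median of 9.70 and its sham knees from 7.56 to 11.82 with a median of 9.33. Bled knees were lower in 10 of 11 rats, with K2 as the exception, and 5 bled knees but no other knee lay at or below the highest node, 7.38. Pfkm fell by 1.80 ± 0.53 log2 units against contralateral knees (SE, limma adjusted p = 0.00690) and fell by 1.59 ± 0.60 against sham knees (limma adjusted p = 0.0355). The latter call was lost when each array was centred on its median and in 8 of 29 fits without 1 knee, with adjusted p up to 0.118.

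Pygm and Pgam2 were called against contralateral knees only by a narrow margin. Pygm ranged from 6.84 to 12.36 with a median of 7.51 in bled knees and from 7.24 to 12.97 with a median of 11.27 in contralateral knees, and fell by 2.09 ± 0.80 (SE, limma adjusted p = 0.0425). Pgam2 ranged from 6.15 to 10.91 with a median of 6.87 in bled knees and from 6.77 to 11.87 with a median of 9.27 in contralateral knees, and fell by 1.77 ± 0.68 (limma adjusted p = 0.0439). The groups overlapped for both genes. Pygm lost its call in 14 and Pgam2 in 15 of the 29 fits without 1 knee, and both lost it with an intensity trend and robust prior.

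Of the other 22 members, 13 had a 95% interval that reached 0. Mb differed by -2.28 with a 95% interval from -4.33 to -0.23 (limma adjusted p = 0.0810), Ttn by -2.02 from -4.06 to 0.02 (adjusted p = 0.130) and Acta1 by -1.85 from -3.85 to 0.15 (adjusted p = 0.160). The 5 troponin and myosin chain genes of slow fibres had the smallest values, among them Tnnc1 at -0.33 ± 0.36 and Tnnt1 at -0.37 ± 0.51 (SE), while Mybpc1 differed by -2.17 ± 0.89.

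Against sham knees, 2 members were called lower, Ldb3 and Pfkm, and none higher, where 38.7% of all probe sets were called and 18.8% were lower. All 26 means were again lower in bled knees, with a median of -1.42, and 3 had an unadjusted p under 0.05. Contralateral against sham knees gave no call among the members in limma, none with an unadjusted p under 0.05, and none in any alternative fit, where 1.82% of all probe sets were called. All 26 means were higher in contralateral knees, with a median of 0.44 at a median standard error of 1.03.

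Because the members followed each other so closely, they were refitted with the mean of the other members in the same array as a covariate, which compares knees at an equal mean of these transcripts. Whether an equal mean is an equal amount of muscle was not tested. The median standard error shrank to 0.198 and the median difference between bled and contralateral knees to 0.07. Since each member was adjusted for the others, which fell alike, the adjusted differences centre near 0 by construction. A call in this fit is a departure of a member from the other members. At an adjusted p under 0.05, 2 members were called lower and 1 higher, against 34.4% of all probe sets called in the fit with this covariate. Ldb3 was lower by -1.13 ± 0.22 log2 units at an equal member mean (SE, limma adjusted p = 8.19e-05), and Pfkm by -0.73 ± 0.19 (adjusted p = 0.00220). The fit assumes 1 slope for the 3 groups, which was not tested, so these differences need not hold over the whole range. The slope of Ldb3 on the mean of the others was 0.43 in bled, 0.56 in contralateral and 0.69 in sham knees. That of Pfkm was 0.56, 0.63 and 0.71. Mybpc2 was higher by 0.58 ± 0.20 (adjusted p = 0.0277), a call lost in 4 of 29 fits without 1 knee. Pygm at -0.38 ± 0.15 (adjusted p = 0.0520) and Pgam2 at -0.35 ± 0.21 (adjusted p = 0.224) no longer passed.

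**Figure D4:**
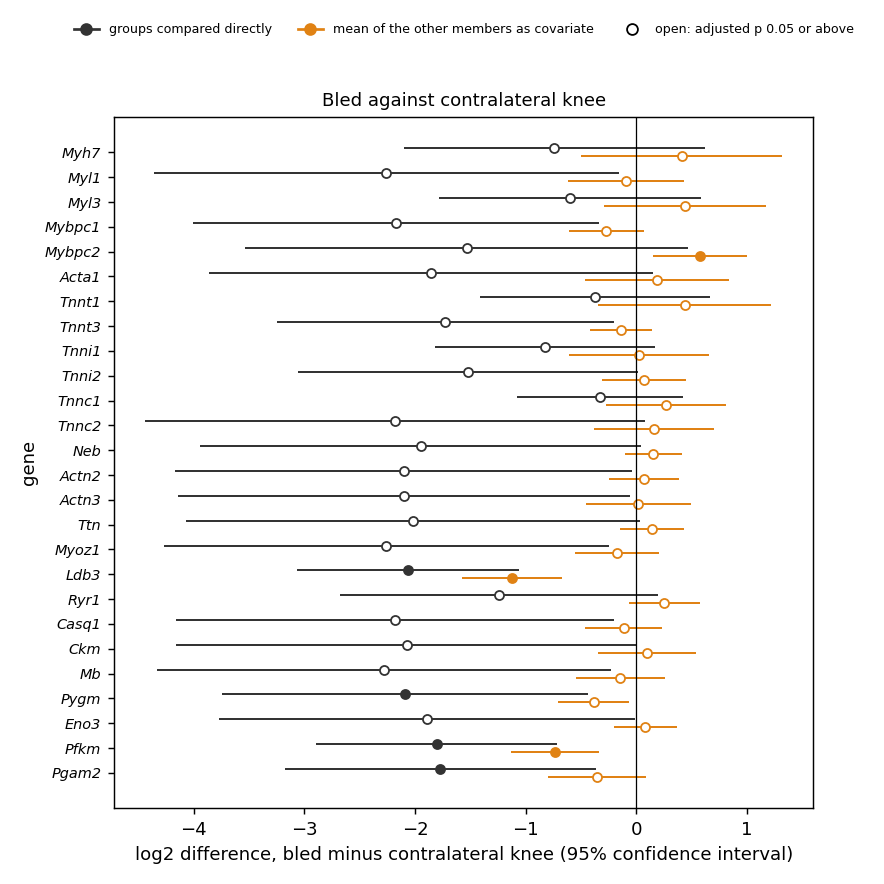
Difference in log2 intensity between bled and contralateral knees for each member, with its 95% confidence interval, compared directly (black) and with the mean of the other members as covariate (orange). Filled points had an adjusted p under 0.05. Without the covariate all 26 points lay below 0. With it they lay on both sides of 0, and Ldb3 and Pfkm were called below and Mybpc2 above.

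Against sham knees at an equal member mean, Ldb3 was lower by -1.30 ± 0.24, Pfkm by -0.80 ± 0.20 and Pgam2 by -0.66 ± 0.23, and Mybpc2 was higher by 0.72 ± 0.22 (SE, limma adjusted p = 3.88e-05, 0.00205, 0.0207 and 0.0104), where 39.7% of all probe sets were called. Contralateral against sham knees gave no call among the members (2.11% of all probe sets). Arrays of like member mean show the size of these departures. Contralateral K7, sham C6 and bled K3 had means of 11.39, 11.32 and 11.13 and Acta1 at 13.01, 13.00 and 12.94. Their Ldb3 values were 10.31, 10.65 and 8.85, and their Pfkm values 11.80, 11.41 and 10.64. In sham C7 and contralateral K9, with means of 5.72 and 5.81, Ldb3 stood at 6.57 and 6.60 and Pfkm at 7.87 and 7.98, above every node, while bled K5 and K8 had Ldb3 at 5.93 and 5.92 and Pfkm at 6.93 and 7.40. All 7 smooth muscle and all 8 fat cell markers were lower in bled knees in both direct comparisons. There 15.2% of all probe sets were lower against contralateral and 18.8% against sham knees. The part of such cells in the values of Ldb3 and Pfkm was not tested.

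Further skeletal muscle genes were taken from a second list of 40, of which 35 had a probe set of their own. Compared directly, 10 of the 35 were lower in bled than in contralateral knees and none higher, with a median of -1.40, where 34.7% of all probe sets were called and 15.2% were lower. At an equal member mean 7 were higher and 8 lower, with a median of -0.07, where 34.4% of all probe sets were called. The 7 were Csrp3, Klhl41, Xirp1, Ankrd2, Cavin4, Xirp2 and Nrap, and the 8 were Slc2a4, Phkg1, Sgca, Asb2, Hrc, Jph1, Myom1 and Myot. None of the 7 passed in the direct comparison, and for Klhl41, Xirp2, Cavin4 and Nrap the direct difference was below 0.

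Klhl41, a kelch protein that stabilises nebulin, had the lowest adjusted p of the 7. It ranged from 5.69 to 11.16 with a median of 6.53 in bled knees, from 4.43 to 10.83 with a median of 8.38 in contralateral knees and from 4.53 to 10.49 with a median of 8.21 in sham knees. No bled knee lay at or below the highest node, 4.75, although 6 bled knees were among the 11 with the lowest member mean. In the leanest bled knees, K5 and K8, Klhl41 stood at 5.86 and 5.77, against 4.53 in sham C7 and 4.88 in contralateral K9 of slightly higher mean. At an equal member mean Klhl41 was higher by 1.77 ± 0.18 against contralateral knees (SE, limma adjusted p = 1.98e-09) and by 1.75 ± 0.20 against sham knees (adjusted p = 1.55e-08), and the direct differences were -0.05 ± 0.86 and 0.39 ± 0.97.

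Csrp3, the muscle LIM protein of the Z disc, ranged from 5.23 to 12.76 in bled, 4.74 to 10.30 in contralateral and 5.52 to 10.70 in sham knees. Its highest values were in bled K3 at 12.76, K2 at 12.20 and K6 at 10.73. At an equal member mean it was higher by 2.20 ± 0.45 (SE, limma adjusted p = 0.000200). Xirp1, a Xin actin-binding protein, ranged from 5.94 to 11.12 in bled, 5.58 to 8.13 in contralateral and 6.28 to 8.87 in sham knees, and 4 bled knees exceeded every other knee. At an equal member mean it was higher by 1.76 ± 0.36 (adjusted p = 0.000172). Ankrd2, a stretch-responsive ankyrin repeat protein, was higher by 1.39 ± 0.40 (adjusted p = 0.00583). Csrp3, Xirp1 and Ankrd2 varied more in bled than in contralateral knees, and whether their slope on the member mean differed between groups was not tested.

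Slc2a4, the insulin-responsive glucose transporter of muscle and fat, ranged from 5.43 to 7.39 in bled knees, from 8.21 to 9.29 in contralateral and from 7.59 to 9.47 in sham knees. No bled knee reached the lowest of the others. It fell by 2.55 ± 0.21 directly (SE, limma adjusted p = 1.09e-11) and was lower by -2.27 ± 0.17 at an equal member mean (adjusted p = 6.93e-12). Phkg1, the catalytic subunit of muscle phosphorylase kinase, ranged from 5.07 to 8.12 in bled, 7.48 to 9.85 in contralateral and 7.49 to 10.06 in sham knees, and was lower by -1.92 ± 0.25 at an equal member mean (adjusted p = 1.86e-07). Both stayed high in knees with little muscle RNA: in sham C7 and contralateral K9, Slc2a4 stood at 7.99 and 8.22 and Phkg1 at 7.77 and 7.84, with highest node values of 6.11 and 6.62. In the direct comparison with contralateral knees all 8 markers of fat cells were lower in bled knees, with a median of -2.29. There 15.2% of all probe sets were lower. The part of fat in the values of Slc2a4 and Phkg1 was not tested.

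Of 11 regulators of muscle, 9 were measured. Directly, Mstn, Mef2c, Eya4 and Mef2d were lower in bled than in contralateral knees and none was higher, where 34.7% of all probe sets were called and 15.2% were lower. At an equal member mean, where 34.4% were called, Myf6, the myogenic factor of mature fibres, was higher by 1.60 ± 0.30 (SE, limma adjusted p = 6.64e-05), as were Myod1 by 0.50 ± 0.18 (adjusted p = 0.0300) and Myog by 0.50 ± 0.19 (adjusted p = 0.0454), while Eya4 and Mef2d were lower. Myf6 ranged from 5.13 to 10.30 in bled, 5.16 to 8.49 in contralateral and 5.15 to 8.55 in sham knees. Its standard deviation was 1.95 in bled and 1.00 in contralateral knees, whereas that of the member mean was 1.82 and 1.76. The lowest values of Myf6 were thus alike in the 3 groups, and whether its slope on the member mean differed between groups was not tested. Myog likewise varied more in bled than in contralateral knees, with standard deviations of 0.78 and 0.29. The call of Myog was lost in 14 of 29 fits without 1 knee and that of Myod1 in 2. None of the 7 measured genes of embryonic and regenerating muscle passed, directly or at an equal member mean, in any of the 3 knee comparisons. In the direct comparison with contralateral knees Chrna1 of that list had the lowest adjusted p, at -0.67 ± 0.27 (adjusted p = 0.0564).

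**Figure D5:**
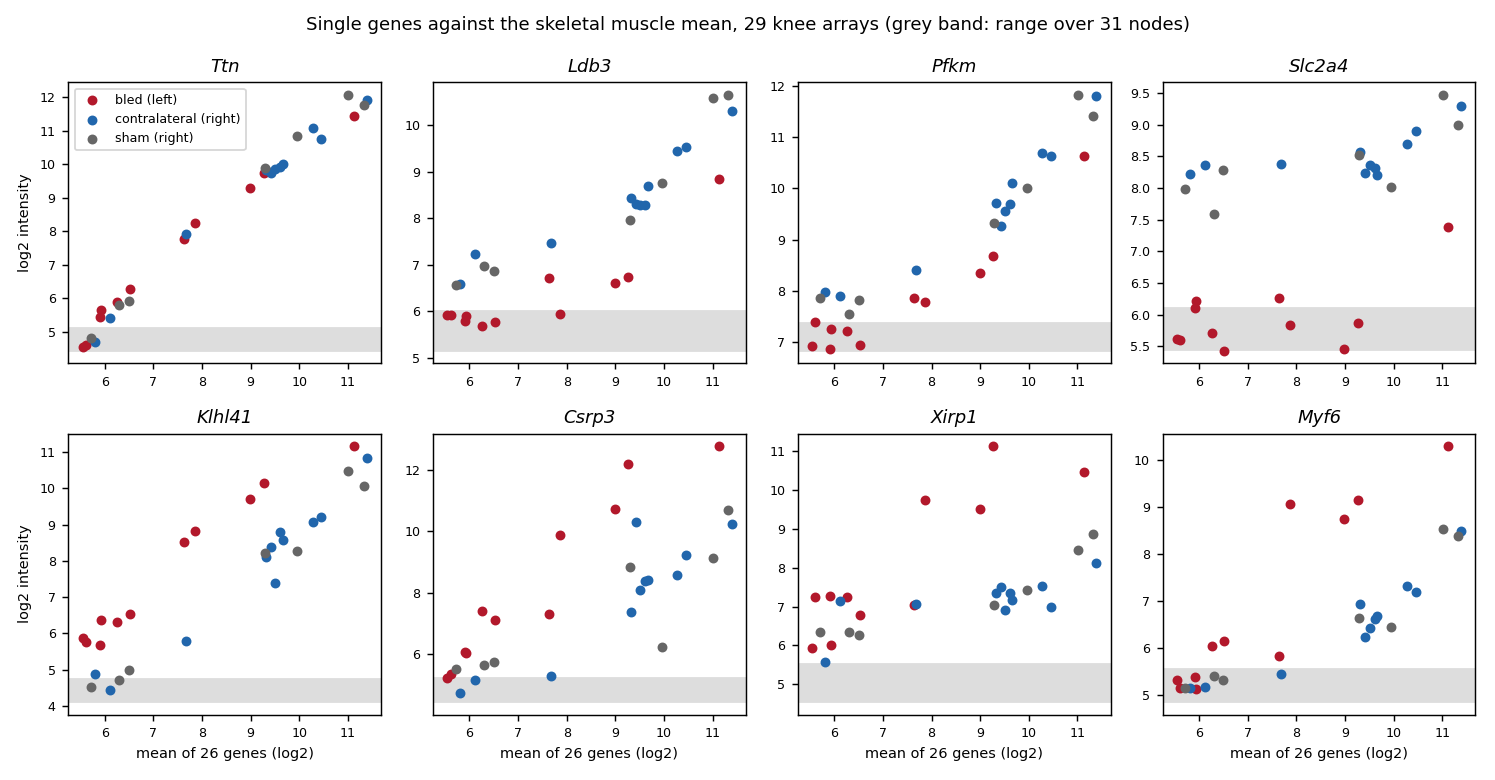
Log2 intensity of 8 genes against the mean of the 26 members in the same knee, coloured by group, with the range of the gene over the 31 nodes as a grey band. Ttn fell on 1 line for all groups, bled knees lay below the others for Ldb3, Pfkm and Slc2a4, and above them over much of the range for Klhl41, Csrp3, Xirp1 and Myf6.

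Markers of other muscle moved differently. All 7 measured smooth muscle markers were lower in bled than in contralateral knees, where 34.7% of all probe sets were called and 15.2% were lower. Among them were the heavy chain Myh11 at -2.25 ± 0.20 (SE, limma adjusted p = 8.37e-11) and Lmod1 at -2.20 ± 0.17 (adjusted p = 4.48e-12). All 7 remained lower at an equal mean of the skeletal members, where 34.4% of all probe sets were called in either direction. Their mean had an r of -0.174 with the mean of the skeletal members over the knees. Of 7 heart muscle markers, only Ryr2 was called in bled against contralateral knees, and it was lower. The mean of the list stayed between 5.02 and 5.73 in knees against 5.05 to 5.71 in nodes.

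In nodes, where the member mean stayed between 5.67 and 6.09, the side of the bleed made no difference that passed. Bled against contralateral nodes gave no call among the members and none among all probe sets (0%), with no member at an unadjusted p under 0.05. Against sham nodes 2 members were lower, where 4.26% of all probe sets were called and 2.34% were lower. Tnnt3 ranged from 6.58 to 7.48 in bled and from 7.26 to 8.02 in sham nodes and fell by 0.38 ± 0.11 (SE, limma adjusted p = 0.0479), and Neb ranged from 4.88 to 5.61 and from 5.31 to 6.06 and fell by 0.32 ± 0.09 (adjusted p = 0.0449). The groups overlapped for both, and 1 of the 2 calls was left without sham nodes C2 and C9, and 0 with only the groups compared, after quantile normalization or after centring. Shares over all probe sets in these other fits are not given here. Contralateral against sham nodes gave no call among the members (5.03% of all probe sets), with 6 at an unadjusted p under 0.05. The highest node values of Acta1 were in sham C9, C8 and C1, at 6.85, 6.82 and 6.75, and those of Ckm and Myl1 in contralateral K6, at 7.12 and 6.45.

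The side difference was also compared between tissues, as bled minus contralateral in knees minus the same in nodes. Ldb3 at -2.02 ± 0.50 and Pfkm at -1.78 ± 0.54 passed (SE, limma adjusted p = 0.000818 and 0.00749), both lower, where 27.8% of all probe sets were called and 12.4% were lower. Without contralateral knee K9 the count was 14, and without bled knee K3 it was 12. How many of all probe sets were called in these 2 fits is not given here, and members that vary together can pass together.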

How the data were processed

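RNA of 29 knees and 31 nodes from 20 rats was measured on 60 Affymetrix arrays, 1 per sample. The deposited values are on a log2 scale, and the submitters' processing notes name RMA and Affymetrix Expression Console (version 1.4.46). The sources used here do not give the options of RMA, joint or separate normalization of the tissues, batch or scan date. Deposited values ran from 1.62 to 14.03, with array medians between 5.64 and 5.94. The number of arrays per group, 7 to 11, limits the precision.

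Of 36685 probe sets, 18511 carried 1 symbol, 575 several and 17599 none in the annotation used. Groups, sides and rats came from the labels. A linear model of the 3 groups was fitted per tissue to all probe sets with limma 3.58.1 in R 4.3.3, with Benjamini-Hochberg adjustment over all probe sets and a call at an adjusted p under 0.05. Contrasts between tissues used all 60 arrays, with 1 spread per probe set shared by knees and nodes. The fits with the mean of the members (for a member, of the other 25) as covariate assume the same slope in the 3 groups. Equal slopes were not tested. Xirp1, Ankrd2, Myf6 and Trim63 varied more in bled than in contralateral knees. Their standard deviations were 1.83 and 0.62, 1.89 and 1.01, 1.95 and 1.00, and 2.13 and 0.99. The same held for Csrp3 (2.73 and 1.96), Cavin4 (1.69 and 1.20), Myog (0.78 and 0.29) and Fbxo32 (1.09 and 0.45). For all these genes a single difference need not hold over the whole range of the member mean. Errors are SE of the difference. Descriptions were computed with Python 3.11.15, numpy 2.4.6 and pandas 2.3.3. On simulated data, 200 of 36685 probe sets drawn at random were changed. The bled against contralateral fit recovered 92% of changes of 1 log2 unit and 100% of changes of 2, and 4.95% of its calls were false. The simulated noise was independent between probe sets, whereas the members vary together. Their median standard deviation in knees was 2.26, against 0.234 over all probe sets, so these rates do not apply to the members.

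The members and lists were chosen with earlier results of these data known. The rule named all members, up to 4 called genes with the largest differences of each further list, and the 10 genes most like the member mean. Further genes named from the lists were chosen after their values were seen. Knees and nodes of both sides came from the same rat. Deviations of the sides of a rat correlated at 0.121 to 0.324 in nodes and at -0.104 to 0.211 in knees.

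Alternatives were the rat as a random or fixed block, only the groups compared, quantile normalization, centring, leaving out dim probe sets, an intensity trend with robust prior, array weights, leaving out the arrays that stood apart, leaving out each array, and the covariate. The covariate with its square, and the covariate fit without each knee for selected genes, were added after seeing the data.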

Additional observations from a re-analysis of the deposited data

Results flagged for a closer look

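For 2 members, in 3 combinations of gene and group, 1 array lay far from the others of its group. In sham knees, Tnnt1 of slow fibres stood at 8.12 in C6 with the next array at 6.04, and Tnni1 of slow fibres stood at 9.07 in the same knee with the next at 7.01. In sham nodes, Tnni1 stood at 5.83 in C8 with the next at 5.58. These were 3 of 54 combinations looked at, which were those of the 26 members and their mean with the 7 sham knees and the 9 sham nodes. Groups of 11 arrays were not looked at in this way. Chance alone sets about 1 in 20 apart where values are normally distributed and the combinations independent. The members varied together in knees, and the flagged knee values were both in C6, so this rate need not apply here.

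For 2 of the 26 members the bled minus contralateral difference was called different between knees and nodes, where 27.8% of all probe sets were called and 12.4% were lower. All 26 members had a value below 0 in this contrast, with a median of -1.84 at a median standard error of 0.92. The members without a call are thus not shown to be alike in the tissues. The knee difference minus the node difference was -2.02 log2 units for Ldb3 and -1.78 for Pfkm, tested as a contrast of contrasts in limma (adjusted p = 0.000818 and 0.00749). Ldb3 was lower on the bled side in 11 of 11 knees and 6 of 11 nodes, and Pfkm in 10 and 7.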

How the results depend on the processing

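Every knee comparison kept the direction of all called members in the fits without covariate. The member counts below stand without the share of all probe sets called in the same alternative fit, and members that vary together can pass or fail together. For bled against contralateral knees the 4 calls became 8 with the rat as a fixed block, 7 with only the groups compared, 7 without dim probe sets, 2 with trend and robust prior and 9 with array weights. Without 1 array they ranged from 2 to 17 (17 without contralateral K9, 14 without bled K3, 10 without contralateral K2). For bled against sham knees the 2 calls became 1 after centring, 4 with the covariate and 5 with its square, and ranged from 1 to 3 without 1 array. For bled against sham nodes the 2 calls became 0 with only the groups compared, 0 after quantile normalization, 0 after centring, and 1 without dim probe sets, with array weights or without C2 and C9, and ranged from 0 to 2. For contralateral against sham nodes the count of 0 became 1 without dim probe sets and ranged from 0 to 1. Bled against contralateral nodes and contralateral against sham knees stayed at 0 throughout. Sham knees against sham nodes ranged from 18 to 23 (18 without sham knee C6), and the side difference between tissues from 2 to 14, with 3 under a random block. The paired analysis with the rat as a block changed no other member count by over 1.5 times. The direction turned with the covariate, and with its square, against contralateral knees for Cavin4 (1.02, 0.98), Klhl41 (1.77, 1.77), Mybpc2 (0.58, 0.60), Myod1 (0.50, 0.44), Nrap (0.54, 0.55) and Xirp2 (0.96, 1.01), and against sham knees for Mybpc2 (0.72, 0.69) and Xirp2 (1.03, 0.95). Without 1 knee, the lowest direct and the highest covariate value were -0.54 and 1.19 for Cavin4, -0.40 and 1.91 for Klhl41, -1.95 and 0.71 for Mybpc2, -0.13 and 0.59 for Myod1, -1.83 and 0.62 for Nrap and -1.65 and 1.15 for Xirp2, and against sham -1.42 and 0.84 for Mybpc2 and -1.20 and 1.20 for Xirp2. The lowest covariate values without 1 knee were 0.91, 1.69, 0.53, 0.46, 0.40 and 0.80 in the same order, among the fits in which the gene was called, and 0.61 and 0.88 against sham. The covariate compares knees at an equal mean of the members by construction; why single calls moved in the other fits was not tested.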

Other observations

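Of 10 genes linked to muscle wasting, 4 were lower and 2 higher in bled than in contralateral knees, where 34.7% of all probe sets were called. Klf15, a factor induced by glucocorticoids, fell by 2.37 ± 0.16 log2 units (SE, limma adjusted p = 2.54e-13), and Fbxo32, the ubiquitin ligase atrogin-1, by 1.78 ± 0.31 (adjusted p = 1.99e-05). Klf15 was also higher in contralateral than in sham knees, by 0.98 ± 0.18 (adjusted p = 0.00199), and in bled against sham knees it fell by 1.38 ± 0.18 (adjusted p = 2.28e-07). Mt1, a metallothionein, rose by 1.89 ± 0.18 (adjusted p = 2.15e-10), and was higher in contralateral than in sham knees by 1.05 ± 0.20 (adjusted p = 0.00298). Trim63, the ligase MuRF1, was called only in the fit with the member mean as covariate, at 1.34 ± 0.34 (adjusted p = 0.00201). Fbxo32 ranged from 7.28 to 11.09 in bled and from 9.12 to 10.87 in contralateral knees, and Trim63 from 4.87 to 11.19 and from 5.62 to 8.54, so the groups overlapped for both ligases. The list is not confined to muscle fibres, and the share of other knee cells in these values was not tested.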
